A study of Homo sapiens with 3 samples.

Results

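The cells of the library labelled day 2 are kept cells of H9, an established human embryonic stem cell line, and they carried the transcripts of pluripotent cells. A barcode of that library was kept as a cell if it had 1000 or more UMIs and 500 or more genes, and if no more than 25% of its UMIs came from genes of the mitochondrial genome. A UMI, or unique molecular identifier, marks 1 captured RNA molecule. This left 2419 of the 12323 barcodes in the library, of 8889 kept cells in the 3 libraries together. The RNA of each cell was barcoded in a droplet with inDrop and the TruDrop protocol. By the labels, H9 cells were grown with mTeSR, a stem cell medium, and the STEMdiff SMADi Neural Induction Kit, which all 3 libraries share, and were sampled at day 0, day 2 and day 6 of differentiation to neural progenitors. The cells labelled day 0 are given as embryonic stem cells, and those labelled day 2 and day 6 as differentiated or neural progenitor cells. The letter B follows the day in this library's label and A in the other two, without explanation. Each day has 1 library, so differences between libraries have no replicate check and no test, and every interval below is a 95% interval that covers counting error only.

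Human pluripotent stem cells are held undifferentiated by a network around the transcription factors POU5F1 (OCT4), SOX2 and NANOG, and in culture they depend on FGF and on TGF-beta or Nodal signals. The usual culture state is called primed, because it resembles the epiblast shortly before gastrulation, and differs from the naive state of the earlier blastocyst. Induction kits that block SMAD signalling turn such cells into neural progenitors, which lose these factors and gain PAX6 and other forebrain genes.

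The kept cells held 20626135 UMIs, with a median of 3814 UMIs (quartiles 1928 and 8923, highest 117858) and 1749 genes per cell, against medians of 8770 and 4429 UMIs in the libraries labelled day 0 and day 6. Of the barcodes left out, 8625 had under 1000 UMIs, 1110 passed the mitochondrial limit and 169 had under 500 genes. The mitochondrial share fell into a low and a high range: 1185 cells (49.0%) lay under 5% and 900 (37.2%) at 10% or more, where the library labelled day 0 had 20.2% and 64.1%. Of the kept barcodes, 38 were also kept in the library labelled day 0 and 72 in that labelled day 6. POU5F1 was nearly missing from the library labelled day 0, which goes against that library's label, so the libraries are called by their labels only and their order is not read as time.

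All 6 markers of pluripotent cells were present in the library labelled day 2, and each was higher there than in either other library. POU5F1, at chr6:31164337-31180731 in GRCh38, stood at 1229 CPM, that is UMIs per 1000000 summed UMIs (1214 to 1244), and was gene 106 of the library by UMIs. TDGF1, a co-receptor for Nodal at chr3:46574534-46582463, stood at 569.5 CPM and ESRG, a long non-coding RNA of pluripotent cells at chr3:54632122-54639857, at 521 CPM. L1TD1, an RNA-binding protein at chr1:62194831-62212328, followed at 227 CPM, CDH1, the epithelial cadherin at chr16:68737225-68835548, at 94.2 CPM and NANOG, at chr12:7787794-7799141, at 66.6 CPM. POU5F1 and its relative POU5F1B (782 CPM) have transcripts alike over 1375 bases at 97.7% identity, so the division of reads between these genes is uncertain. In the order of this paragraph the same 6 genes stood at 2.22, 0, 0.282, 8.82, 1.13 and 2.19 CPM in the library labelled day 0 and at 268, 6.69, 135, 72.6, 39.7 and 0.945 CPM in that labelled day 6.

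The markers were spread over nearly all cells, with different levels per cell. To compare cells at 1 depth, the 1000 cells of at least 5000 UMIs were thinned at random to 5000 UMIs. POU5F1 was seen in 97.9% of them, with a median of 6 UMIs (quartiles 4 and 9, highest 23), and 21 cells had none. TDGF1 was seen in 89.6% (median 3, highest 13), ESRG in 84.8% (median 2, highest 17) and L1TD1 in 63.5% (median 1, highest 7). CDH1 and NANOG were seen in 31.8% and 27.2%, with at most 4 and 6 UMIs in a cell, so a cell without a NANOG UMI at this depth cannot be called negative. At least 3 of the 6 markers were seen in 933 of the 1000 cells (93.3%), all 6 in 39 and none in 7. Across all 2419 cells thinned to 1000 UMIs the shares were 73.3% (71.5 to 75.05) for POU5F1, 42.8% for TDGF1, 40.8% for ESRG, 20.3% for L1TD1, 6.70% for NANOG and 6.49% for CDH1, while PAX6 was seen in 0.413%.

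**Figure D1:**
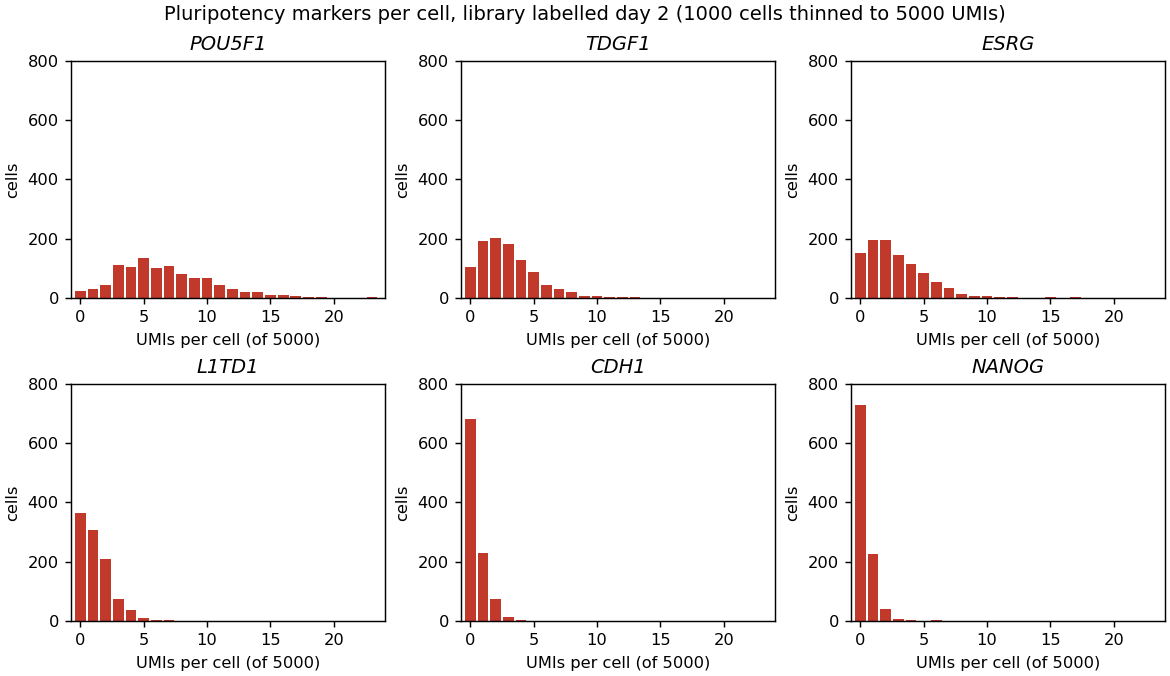
Histograms of the UMIs per cell of the 6 markers in the 1000 cells of the library labelled day 2 with at least 5000 UMIs, each thinned to 5000 (x axis, UMIs per cell; y axis, number of cells). POU5F1 has a broad peak around its median of 6 UMIs with 21 cells at 0, whereas most cells hold no CDH1 or NANOG UMI.

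Clustering the library alone gave 5 clusters, of which 4 were pluripotent-like and held 2383 cells, 98.5% (97.9 to 98.96). Cells of the 4 clusters differed mainly in mitochondrial share, depth and cell cycle genes. The first pluripotent-like cluster (558 cells, median mitochondrial share 16.5%) was led by RN7SK, a small nuclear RNA that holds back transcription elongation, at 339 CPM. Another (462 cells, 14.2%) had a median of 22137 UMIs and was led by LINC01619 and MGAT4C. The largest (765 cells) had a mitochondrial share of 2.61% and POU5F1 at 1827 CPM. The last (598 cells, 1.88%) was led by mitosis genes such as CDK1 and UBE2C, with TOP2A at 676 CPM and POU5F1 at 1712 CPM. These leading genes defined the clusters and are given as a description.

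The fifth cluster held 36 cells, 1.49% of the library (1.04 to 2.05), and was neural progenitor-like by 28 of the 33 markers of that type. Its leading gene was DLK1, which encodes a membrane protein related to Notch ligands, at 5228 CPM. The forebrain factors LHX2 (329 CPM), SIX3 (242 CPM), ZIC1 (222 CPM), PAX6 (194 CPM) and FEZF2 (151 CPM) and the progenitor genes FABP7 (472 CPM) and HES5 (234 CPM) were also found there. With 1.22% of the library's UMIs, the 36 cells held 80.4% of its DLK1, 71.8% of its SIX3, 57.6% of its LHX2 and 35.8% of its PAX6 UMIs. POU5F1 stood at 147 CPM in them and had a UMI in 55.6% (median depth 6323 UMIs), against 94.4% in the largest cluster (median 2206 UMIs). The source of the POU5F1 UMIs in these cells was not tested. None of the 36 barcodes was kept in another library. Of the 19 neural progenitor-like cells with at least 5000 UMIs, 6 were among the 7 cells without any of the 6 markers and 10 among the 17 cells with only 1.

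The list of 28 core pluripotency genes was nearly complete in the library. With a minimum of 10 CPM, 23 of the 28 were present, beside 9337 of the 26924 genes with a UMI, and each of the 28 had a UMI. Of 23 measured members (10 CPM or more in 1 library or several), 11 were at least 2-fold higher than in both other libraries and 0 at most 0.5 times both. Of all 10574 measured genes 4.19% were so much higher and 3.46% so much lower. All 23 members reached 10 CPM in the library labelled day 2, and 13 and 19 did in those labelled day 0 and day 6. A member that reached it only in the library labelled day 2 could not count as lower. One that missed it there could not count as higher. The same limit holds for such counts of other lists and of factors below. The list also holds markers given above, among them POU5F1 and ESRG. LIN28A, which blocks let-7 maturation, stood at 1037 CPM and DNMT3B, a de novo DNA methyltransferase, at 530.5 CPM, but neither was particular to this library. LIN28A was seen in 68.2% of cells thinned to 1000 UMIs, against 66.5% and 85.8% in the libraries labelled day 0 and day 6. DNMT3B was seen in 45.1%, against 7.82% and 48.5%. The surface protein gene PODXL stood at 430 CPM, DPPA4 at 413 CPM and JARID2, a partner of Polycomb complex 2, at 411 CPM. The members under 10 CPM were UTF1 (9.11 CPM), DPPA2 (4.22), GDF3 (2.18), DPPA3 (2.23) and LINC-ROR (0.388). Most of the list was thus present at a level well above the 0.145 CPM that 3 UMIs make up in this library.

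More of the primed than of the naive genes reached 10 CPM, a level reached by 9337 of the 26924 genes with a UMI. Of 23 primed and formative genes 18 reached 10 CPM, led by CD24, a surface glycoprotein gene, at 1660 CPM, against 170 and 1633 CPM in the libraries labelled day 0 and day 6. THY1, another surface marker of primed cells, stood at 181 CPM against 23.2 and 63.5 CPM, and the secreted WNT modulator SFRP2 at 343 CPM. Members at most 0.5 times both other libraries were OTX2 (30.6 CPM) and SOX11 (148 CPM). Of 19 naive genes 3 reached 10 CPM, namely ZFP42 (153 CPM), KLF4 (21.9 CPM) and KLF5 (13.6 CPM). KLF17, DPPA5, TFCP2L1 and TBX3 lay at 0.485, 0.727, 1.65 and 0.0970 CPM, and 1 member had no UMI. The counts for the 4 early lineages were also low: 0 of 17 primitive streak and mesendoderm genes reached 10 CPM (highest LHX1, 1.70 CPM), 1 of 14 endoderm genes (KIT, which germ cells also express, 13.7 CPM), 2 of 15 mesoderm genes (COL1A1 and KDR, 23.2 and 22.8 CPM) and 1 of 18 amnion and trophoblast genes (BAMBI, 20.8 CPM). Of 13 genes of tissues not in the culture 0 reached it, with ACTA1 highest at 7.85 CPM.

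Neural progenitor genes were low but measurable. Of 33 members 11 reached 10 CPM, which is near the share of all genes, 9337 of the 26924 with a UMI. The highest were VIM (206.5 CPM), DLK1 (79.5 CPM) and NES (64.9 CPM), which are filament proteins and the membrane protein named above. DLK1 stood at 15.8 CPM in the pluripotent-like cells, since 80.4% of its UMIs lay in the 36 neural progenitor-like cells. Of 25 measured members 17 were at most 0.5 times both other libraries and 0 were at least 2-fold higher, beside the same 3.46% and 4.19% of all genes. CDH2, the neural cadherin, stood at 47.9 CPM against 446 and 209 CPM in the libraries labelled day 0 and day 6. Neuronal genes reached 10 CPM for 3 of 15, with the synaptic vesicle gene SYT1 at 102 CPM. Among neural crest genes 3 of 11 did, of which FOXD3 is also a factor of pluripotent cells.

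Several targets of Nodal, TGF-beta and FGF signals stood above both other libraries. Of 5 measured Nodal and TGF-beta targets 4 were at least 2-fold above both other libraries, beside 4.19% of all genes. They were TDGF1, NANOG, SKIL and PMEPA1 (14.7 CPM against 0.388 and 2.50 CPM). TDGF1, NANOG and PMEPA1 reached 10 CPM only in the library labelled day 2, so the minimum itself favoured their being higher. TDGF1 and NANOG are also among the 6 markers, so the count is no separate evidence. The fifth target, TGIF1, stood at 185 CPM against 125 and 131 CPM. Of 15 measured FGF and ERK targets 6 were so much higher, among them the feedback phosphatase genes DUSP6 (125 CPM) and DUSP5 (22.5 CPM), the feedback inhibitor SPRY4 (52.3 CPM) and the ETS factor ETV4 (59.0 CPM). Of 18 immediate early genes 8 were higher, led by IER2 (130.5 CPM) and FOS (116 CPM). FOS is in both lists. WNT targets reached 10 CPM for 2 of 15 (ZNRF3 and CCND1, 47.9 and 24.5 CPM), beside 9337 of the 26924 genes with a UMI. LEF1 was lower than in both others at 2.96 CPM.

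The summed levels of glycolysis genes and of hypoxia targets were also higher than in the other libraries. The 21 glycolysis genes summed to 8119 CPM, against 4587.5 and 5204 CPM in the libraries labelled day 0 and day 6, and 3 of 19 measured members were at least 2-fold above both, where 4.19% of all genes were so much higher and 3.46% at most 0.5 times both: LDHA (738 CPM against 203 and 164), PGK1 (714 against 266 and 283) and HK2 (70.2 against 23.7 and 31.8). LDHA makes lactate, PGK1 is a kinase of the lower pathway and HK2 opens the pathway. The 26 hypoxia targets summed to 1594 CPM against 811 and 519 CPM, with 6 of 20 higher. BNIP3, a mitophagy receptor, stood at 304 CPM against 64.8 and 62.8, AK4, a mitochondrial adenylate kinase, at 138 CPM against 6.74 and 4.85, and ADM, the adrenomedullin precursor, at 92.2 CPM against 2.08 and 4.68. Of 24 ATF4 targets 9 were higher, including ASNS (184 CPM), MTHFD2 (210 CPM) and CHAC1 (72.5 CPM). No cholesterol synthesis gene was higher, and 4 of 26 were lower than in both, among them HMGCS1, an early enzyme of the pathway (102 CPM). In the epithelial list 6 of 21 were higher, with ESRP1, a splicing factor of epithelia, at 124 CPM against 0.741 and 19.7 CPM and the tight junction gene CLDN7 at 54.5 CPM against 0.106 and 1.74 CPM. Of 20 measured p53 targets 1 was higher, PMAIP1, a pro-death BCL2 family gene, at 262 CPM against 9.39 and 9.84 CPM, and 1 lower, TP53INP1, at 4.95 CPM against 12.5 and 21.7 CPM, which is near the share of all genes.

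Of the 10 most abundant genes 8 were mitochondrially encoded. Mitochondrially encoded genes made up 11.8% of UMIs and ribosomal protein genes 16.6%, and the 10 most abundant genes 12.5%. These 10 were MT-RNR2 (17063 CPM), LINC00486 (16655 CPM), MT-CO1 (13781 CPM), RP5-857K21.4 (13607 CPM), MT-CO3 (12264 CPM), MT-ND4 (11780 CPM), MT-ND1 (10451 CPM), MT-ATP6 (10307 CPM), MT-CYB (10046 CPM) and MT-CO2 (9036 CPM). With a mitochondrial limit of 10% the 8 mitochondrial genes and RP5-857K21.4 stood at 0.302 to 0.351 times these levels. LINC00486 was seen in 100% of cells thinned to 1000 UMIs. It was also high in the libraries labelled day 0 and day 6, at 13877 and 12112 CPM. The source of the LINC00486 reads was not tested. In all, 26924 genes had a UMI, 9337 reached 10 CPM, 1455 reached 100 CPM and 127 reached 1000 CPM. CPM of UMIs is not corrected for gene length, and orders of genes here are orders of captured molecules.

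Outside the mitochondrial and ribosomal protein genes, housekeeping genes of translation, cytoskeleton and protein folding followed. The translation elongation factor EEF1A1 stood at 6871 CPM and EEF2 at 1704 CPM. The actins ACTG1 and ACTB stood at 3689 and 3297 CPM, and the tubulin TUBB at 2334 CPM. The splicing regulator HNRNPA1 stood at 2836 CPM, prothymosin alpha (PTMA) at 2727 CPM, the chaperones HSP90AB1 and HSP90AA1 at 2649 and 2395 CPM, TPT1 at 2438 CPM and the nucleolar protein NPM1 at 1956 CPM. TMSB4X, PPIA, SET, ENO1 and CD24 completed the list between 1660 CPM (CD24) and 1800 CPM (TMSB4X). Also on it were STEAP1B, at 7764 CPM above EEF1A1, and CLVS1, at 1854 CPM, which are not housekeeping genes.

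In GENCODE 29 (GRCh38) STEAP1B and CLVS1 each hold, in an intron and on the same strand, a processed copy of one of these abundant genes. EEF1A1P6, at chr7:22510616-22511999 on the minus strand, lies within STEAP1B and matches the EEF1A1 coding sequence at 1377 of 1384 aligned bases (99.5%). NPM1P6 lies in the same way within CLVS1. PTMAP2 (chr5:118973796-118974122, plus strand) lies within DTWD2, a gene of the other strand at 1302 CPM, and matches PTMA at 284 of 287 bases (98.95%). Stretches of 60 coding bases of EEF1A1 and PTMA and of these copies, computed from the GENCODE 29 transcripts, show how little separates them, with capitals at the bases that differ.
EEF1A1: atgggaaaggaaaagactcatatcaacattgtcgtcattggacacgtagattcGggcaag
EEF1A1P6: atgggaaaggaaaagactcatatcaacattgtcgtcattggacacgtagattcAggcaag
PTMA: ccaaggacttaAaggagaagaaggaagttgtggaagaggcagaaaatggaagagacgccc
PTMAP2: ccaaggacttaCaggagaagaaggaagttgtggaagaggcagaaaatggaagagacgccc
The stretch of PTMA starts at coding base 119 and that of EEF1A1 at base 1. How reads of such sequences were divided between parent and host gene is not given in the sources used here, so the levels of STEAP1B, CLVS1, DTWD2 and their parents are uncertain.

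Transcription factors were taken from a list of 584 symbols, of which 580 were in the files and 570 had at least 1 UMI. Of these 265 reached 10 CPM, 88 reached 50 CPM and 41 reached 100 CPM. The highest were general factors: YBX1, a cold shock domain protein, at 1454 CPM and the chromatin protein HMGA1 at 1304 CPM, with POU5F1 next. TERF1, a telomere repeat binding protein, followed at 603 CPM, against 152 and 222 CPM in the libraries labelled day 0 and day 6. NR6A1, an orphan nuclear receptor known to repress POU5F1, stood at 545 CPM, against 682 and 808 CPM. SOX2, which pluripotent and neural progenitor cells share, stood at 333 CPM and thus below both others (600 and 810 CPM), and SALL4 at 158 CPM, against 176 and 369 CPM. ZIC2 (256 CPM), TCF7L1, a repressor of WNT targets (229 CPM), ID3 (224 CPM), TCF7L2 (220 CPM), POU2F1 (205 CPM), FOXN3 (188 CPM), TGIF1 (185 CPM) and RBPJ, the nuclear partner of Notch (175 CPM), lay in the middle of the 25 highest. FOXO1, a forkhead factor, stood at 172 CPM, against 22.2 and 52.2 CPM, and at 111 CPM as a mean over cells scaled singly.

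Of 315 measured factors 31 (9.84%) were at least 2-fold above both other libraries and 31 (9.84%) at most 0.5 times both, beside 4.19% and 3.46% of all genes. The median log2 ratio of the factors to the libraries labelled day 0 and day 6 was 0.01 and -0.18, against 0.01 and -0.12 for all genes. The bZIP family, which holds the FOS and JUN proteins, had 8 of its 40 members higher (among them FOS, JUN, FOSB, ATF3, NFE2L3, CEBPB and DDIT3) and 0 lower. ETS factors had 3 higher (ETV4, ETV5 and ETS1) and 0 lower, and the KLF, SP and EGR group 3 higher (KLF4, KLF5 and KLF10) and 0 lower. Homeobox genes had 2 of 110 higher, NANOG and NKX1-2, and 11 lower, and SOX and HMG box genes 0 higher and 5 lower. These family sizes are of all listed members, not of measured ones, so they cannot be set beside the shares above. In this library 26 of the 40 bZIP and 21 of the 110 homeobox genes reached 10 CPM. With a minimum of 50 CPM the counts were 10 higher and 20 lower, and with a mitochondrial limit of 10% they were 28 and 45.

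Among the factors furthest above both other libraries, FOXD3, a forkhead repressor of stem cells and neural crest, stood at 27.3 CPM, against 0.121 CPM in the library labelled day 6 and not a single UMI in that labelled day 0. It was at least 258-fold above the latter, with 3 UMIs set in place of 0, and 226-fold above the former. In the library labelled day 6, 3 UMIs make up 0.0727 CPM, so the 226-fold value rests on a few UMIs and is uncertain. Without a stated strand setting, FOXD3 cannot be separated from its antisense partner FOXD3-AS1. NKX1-2 stood at 11.7 CPM against 0 and 0.412 CPM, and HEY2, a repressor downstream of Notch, at 18 CPM against 0.176 and 1.14 CPM. ETV4, an effector of FGF signalling, stood at 59.0 CPM, against 1.91 and 3.20 CPM. NFE2L3 (80.5 CPM against 8.79 and 9.11) and SKIL, a SMAD corepressor (121 CPM against 15.5 and 21.8), had ratios of the same order to both libraries. GRHL2, an epithelial factor (29.8 CPM against 4.02 and 4.41), KLF4 (21.9 CPM against 2.47 and 2.52) and KLF5 (13.6 CPM against 1.87 and 0.897) were low in absolute level. Under a mitochondrial limit of 10% their levels in this library were 14.9, 9.58 and 7.05 CPM.

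The 10 factors furthest below both other libraries by the ratio to the nearer of them stood at 1.21 to 29.4 CPM in the library labelled day 2. FEZF1, a forebrain zinc finger, stood at 29.4 CPM against 160 and 424 CPM. SOX21 stood at 2.52 CPM against 53.4 and 127 CPM, LHX5 at 2.57 CPM against 52.3 and 129 CPM, and ZEB2, a repressor of epithelial genes, at 6.11 CPM against 54.8 and 116 CPM. The nuclear receptor NR2F2 stood at 1.36 CPM against 264 and 8.70 CPM, and LMX1A at 1.21 CPM against 9.0 and 19.6 CPM. SIX3, GLIS3, ZFHX4 and SOX5 stood at 4.12, 4.02, 7.42 and 7.71 CPM, against 82.2, 148, 179 and 109 CPM in the library labelled day 0 and 26.2, 36.0, 37.0 and 36.3 CPM in that labelled day 6. Part of these low levels lay in the 36 neural progenitor-like cells, which held 71.8% of the UMIs of SIX3, 47.2% of LHX5, 32.7% of SOX21, 25% of NR2F2 and 20.9% of ZFHX4, but 9.39% of FEZF1 and none of LMX1A. Without these cells SIX3 stood at 1.18 CPM and LHX5 at 1.37 CPM.

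**Figure D2:**
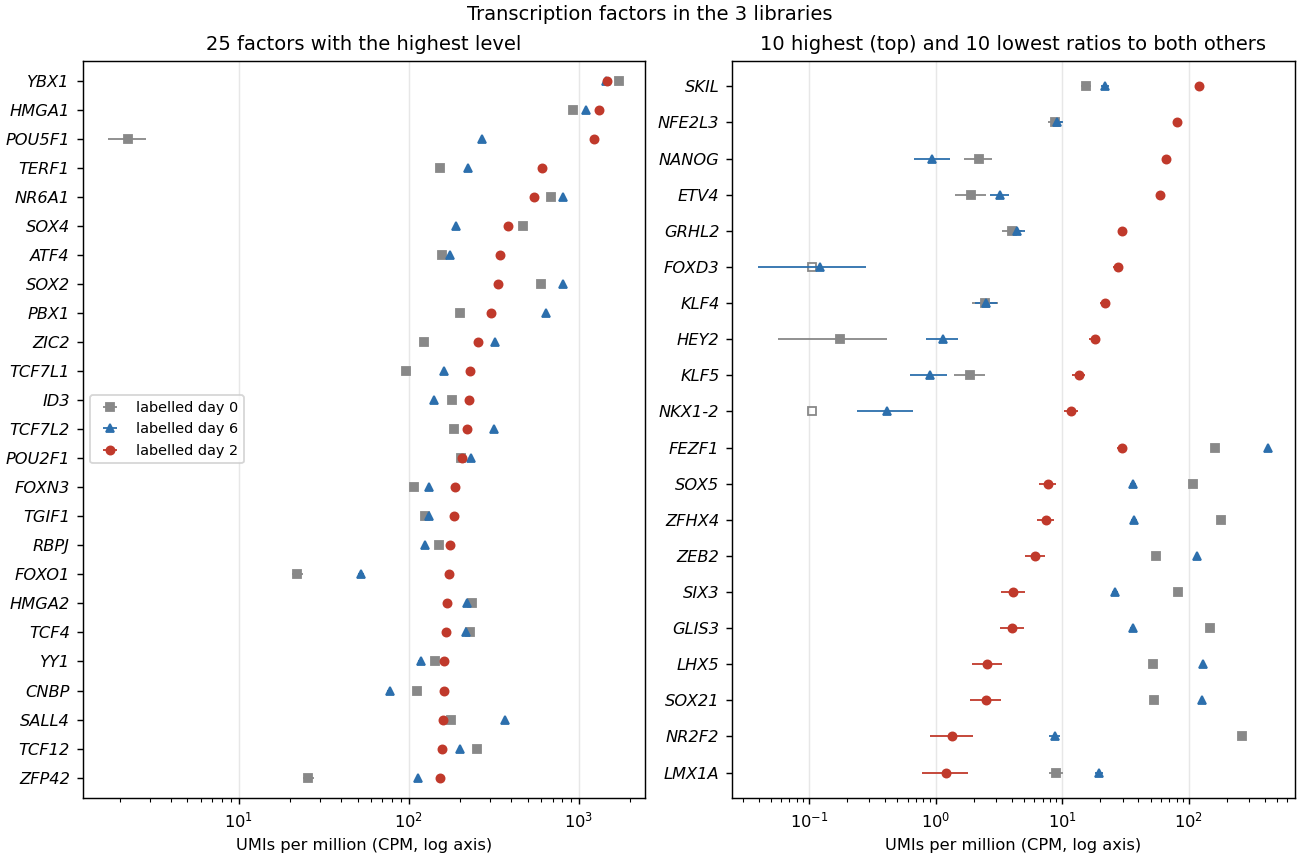
Levels in CPM (x axis, log scale) of the 25 transcription factors highest in the library labelled day 2 (left) and of the 10 with the highest and the 10 with the lowest ratio to both other libraries (right), with 1 symbol per library and 95% Poisson intervals for counting error; open squares mark 3 UMIs where the library labelled day 0 had 0. POU5F1, TERF1 and FOXO1 lie to the right of both other libraries on the left side, and FOXD3, NANOG and ETV4 do so on the right side.

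Cells of the library differed most in a handful of RNAs. Variation was measured in the 1000 cells thinned to 5000 UMIs by the Fano factor, the variance over the mean of UMIs, which is about 1 for random sampling alone. Its median over 6320 genes seen in at least 10% of the cells was 1.12, and 86 genes reached 2 and 35 reached 3. The highest outside the mitochondrial and ribosomal protein genes was RP5-857K21.4 at 34.6, with 6 UMIs at the 10th and 131 at the 90th percentile of cells. CH507-513H4.1 (17.2) and CH507-528H12.1 (14.0), whose names are not in GENCODE 29, had medians of 1 and 2 UMIs but up to 157 and 122 UMIs in a cell. MALAT1, a nuclear long non-coding RNA, had a Fano factor of 8.67, and the metallothionein gene MT1G, which binds metal ions, 6.75: it was seen in 22.9% of cells with up to 46 UMIs. STEAP1B (5.40), EEF1A1 (5.05), CH507-513H4.3 (4.81), SORCS2 (4.42) and PCDH15 (4.03) made up the rest of the 10 highest. Among the markers POU5F1 and ESRG had 1.92 each and TDGF1 1.57, all above the median of genes. CDH1 (1.18) and NANOG (1.14) were near it. The Fano factor was not corrected for level, and the markers with higher values also had more UMIs. Mean UMIs were 6.55, 2.73 and 2.85 for POU5F1, ESRG and TDGF1, against 0.425 and 0.331 for CDH1 and NANOG. LIN28A, with a mean of 5.57, had 1.73. These values thus do not show which marker varied more between cells.

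The mitochondrial share of a cell was related to many other genes. Since every thinned cell holds 5000 UMIs, more mitochondrial UMIs leave fewer for all other genes, and part of any negative relation follows from that. Across the 1000 cells, 170 of 6301 genes that are not mitochondrially encoded had an r of at most -0.3 with the share and 31 one of at least 0.3. Ribosomal protein genes were among the former in 43 of 85 cases. EEF1A1 had an r of -0.66, ACTB of -0.65 and POU5F1 of -0.47. EEF1A1 went from a mean of 49.8 UMIs in the 337 cells under 5% to 35.7 in the 89 cells from 5 to 10% and 29.4 in the 574 cells above, and POU5F1 from 9.18 to 6.44 and 5.02. NANOG was seen in 38.9%, 20.2% and 21.43% of these cells and ESRG had means of 3.43, 2.82 and 2.30 UMIs. At the other end PCDH15, a protocadherin gene, had an r of 0.75 and went from 0.677 to 2.30 and 5.73 UMIs. Sequence shared between PCDH15 and mitochondrial genes was not searched, so the origin of its UMIs is uncertain. XACT, a long non-coding RNA of the X chromosome in pluripotent cells, went from 0.134 to 1.55 and 1.82 UMIs. CDH1 was seen in 21.7% of cells with a low share and in 39.3% and 36.6% of the others, and SOX2 had means of 1.41, 2.45 and 1.81 UMIs. The part of RNA quality in these differences was not tested.

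**Figure D3:**
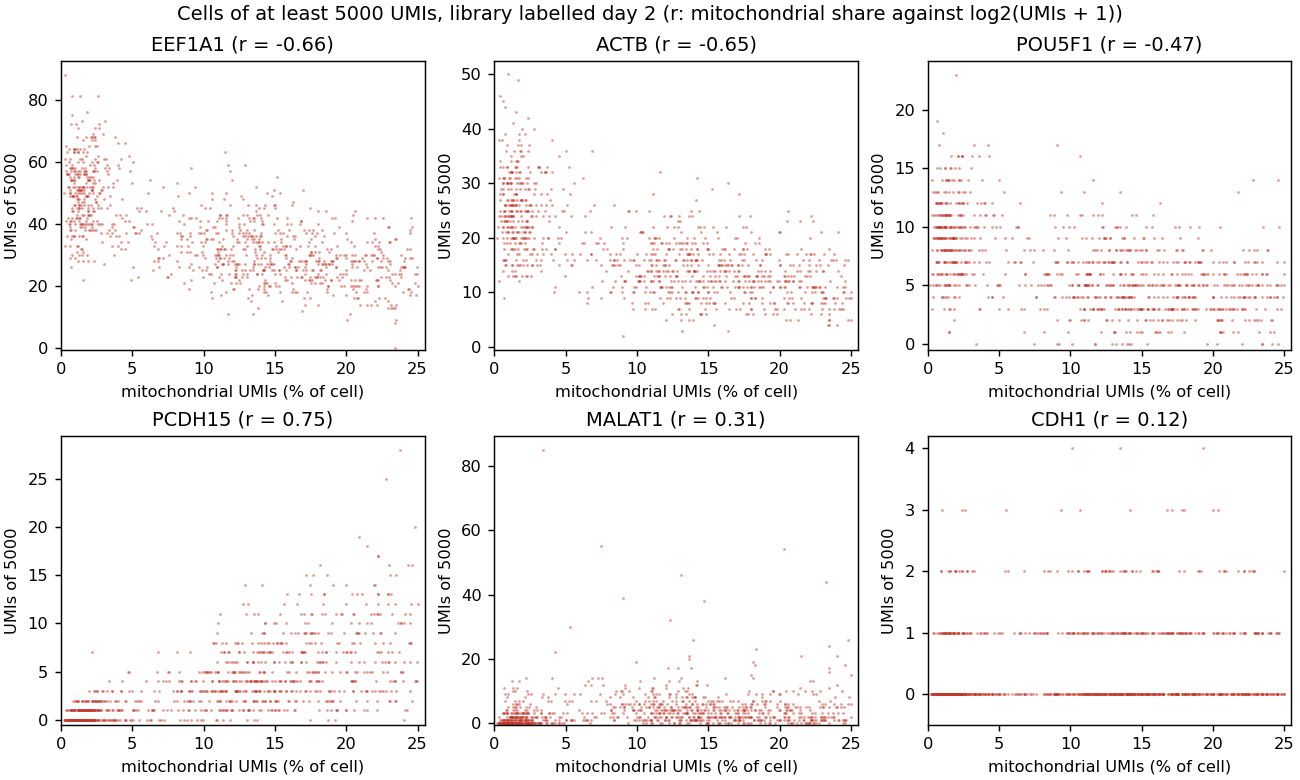
UMIs per cell of 6 genes (y axes, of 5000 UMIs) against the percentage of mitochondrial UMIs of the cell (x axes) in the 1000 cells of the library labelled day 2 with at least 5000 UMIs, 1 point per cell. EEF1A1, ACTB and POU5F1 are highest in cells under 5%, PCDH15 is highest in cells with a high share, and most cells have no CDH1 UMI at any share.

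Gene pairs correlated across cells were rare. Pearson's r of log2(UMIs + 1) was computed for all 19968040 pairs of the 6320 genes; the cells share 1 culture and library, so the values are a description and have no p. The median r was 0.0016, and 2667 pairs (0.0134%) had an r of at least 0.3 and 2632 (0.0132%) one of at most -0.3. Without mitochondrial and ribosomal protein genes, 867 pairs (0.00449%) had an r of at least 0.3 and 459 one of at most -0.3. The same computation found 528 and 262 pairs among 19848150 in the library labelled day 0 and 479 and 484 among 23021505 in that labelled day 6, which had 1560 and 1946 cells. In cells with 5 to 25% mitochondrial UMIs the count of the library labelled day 2 was 358, in cells under 5% it was 419, and with residuals after a linear fit on log2 UMIs and mitochondrial share it was 192, with 0 at -0.3 or below. Fewer pairs thus reached 0.3 within either range of the mitochondrial share than over both together.

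The 15 highest pairs were all between mitochondrial genes or between such a gene and RP5-857K21.4. MT-CO1, a subunit gene of cytochrome oxidase, and RP5-857K21.4 had the highest r, 0.96 (0.92 and 0.95 in the libraries labelled day 0 and day 6), and the other 14 lay between 0.94 and 0.96. RP5-857K21.4 is not in GENCODE 29 by name and is not identified further here. The 10 lowest pairs joined a mitochondrial gene with EEF1A1, STEAP1B or ACTB, with r from -0.65 to -0.64, and lay between -0.17 and -0.04 after the fit. PCDH15 and PCBD2 correlated with RP5-857K21.4 at 0.76 and 0.68, and at 0.25 and 0.12 after the fit. Whether PCDH15 or PCBD2 shares sequence with mitochondrial genes was not searched.

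Of the other pairs the highest was that of EEF1A1 and STEAP1B, the parent and the host of the first stretches printed above, at 0.80 (0.61 and 0.63 in the other libraries, 0.62 after the fit). CLVS1 and NPM1, which also share a copy, followed at 0.71 (0.59 after the fit). After the fit, 68 pairs without mitochondrial or ribosomal protein genes had an r of at least 0.3. Of these, 10 had a pseudogene of one gene in an intron of the other, 6 had transcripts alike over at least 100 bases at 95% identity or more, and 21 included a name not in GENCODE 29. The 10 included CCSER1 with TMSB4X (0.48), DTWD2 with PTMA (0.37) and GAREM1 with HNRNPA1 (0.35), and the 6 included POU5F1 with POU5F1B (0.39) and SMN1 with SMN2 (0.37). CLVS1 and FAM172A, which each hold an NPM1 pseudogene, correlated with each other at 0.41. Reads shared between like sequences and joint regulation cannot be told apart in these pairs. CH507-528H12.1 correlated with CH507-513H4.1 and SORCS2 at 0.69 and 0.64 (0.67 and 0.62 after the fit). These pairs had 0.33 and 0.27 in the library labelled day 0 and 0.20 and 0.13 in that labelled day 6. After the fit, CH507-513H4.3 correlated with each of these genes at 0.33 to 0.39, and HFM1 did at 0.30 to 0.37. All of them were also among the leading genes of the first pluripotent-like cluster, beside RN7SK.

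For the other 31 of the 68 pairs neither alike transcripts nor a pseudogene of one gene inside the other was found. They include CLVS1 with FAM172A, each of which holds a pseudogene of NPM1. A gene of the G2 and mitosis list was in 14 of the 31. UBE2C, which loads ubiquitin for the anaphase-promoting complex, and TOP2A, the mitotic topoisomerase, had an r of 0.47 (0.63 and 0.44 in the libraries labelled day 0 and day 6) and 0.44 after the fit. KPNA2, an importin, correlated with UBE2C at 0.50 and with TOP2A at 0.44 after the fit, and CDK1 with TOP2A at 0.37. Over all 1378 pairs of the list the median r was 0.08, against 0.0016 for all pairs, and 1276 were above 0. It was 0.17 and 0.09 in the libraries labelled day 0 and day 6.

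PGK1 and LDHA were correlated in the library labelled day 2 at an r of 0.43, with 814 of 1000 cells holding both, and had 0.08 and 0.05 in the libraries labelled day 0 and day 6. The value was 0.41 after the fit, 0.47 in cells with 5 to 25% mitochondrial UMIs and 0.40 in cells under 5%. BNIP3 correlated with LDHA at 0.42 and with PGK1 at 0.38 after the fit, ENO1 with PGK1 at 0.33 and FAM162A with LDHA at 0.31. BNIP3 and FAM162A had an r of 0.32, against -0.03 and 0.00. These 5 genes are known HIF1 targets, and they lie in the 2 lists whose summed levels are given above. The list medians were low all the same: 0.07 for 171 pairs of glycolysis genes (0.02 and 0.03 in the other libraries) and 0.05 for 105 pairs of hypoxia targets (0.01 and 0.00). LDHA, PGK1 and BNIP3 and the sums of both lists were lower in the other libraries, as given above. At a fixed depth, fewer UMIs of a gene weaken its r through counting error. The part of level in these differences of r between libraries was not tested.

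**Figure D4:**
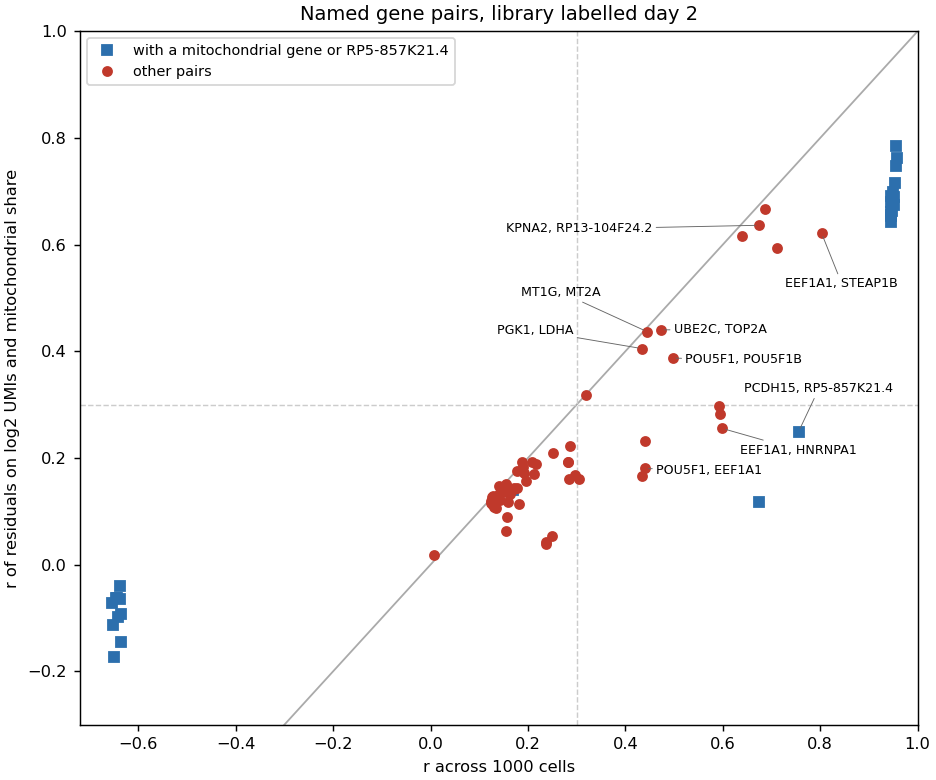
Pearson's r of log2(UMIs + 1) for the named gene pairs across 1000 cells of the library labelled day 2 (x axis) against r of the residuals after a fit on log2 UMIs and mitochondrial share (y axis), with dashed lines at 0.3 and a diagonal of equal values. PGK1 with LDHA, MT1G with MT2A and UBE2C with TOP2A lie near the diagonal, whereas POU5F1 with EEF1A1 went from 0.44 to 0.18.

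Metallothionein genes had the highest median among the lists with at least 4 genes, 0.33 over 6 pairs, of which 3 reached 0.3. This median was 0.42 in the library labelled day 6. It moved with the setting in the library labelled day 2. There it was 0.23 with Spearman's rho, 0.23 in cells with 5 to 25% mitochondrial UMIs and 0.53 without a log. MT1G and MT2A correlated at 0.44 (0.28 and 0.52 in the other libraries), with 100 cells holding both, and MT1E with MT1G at 0.43 after the fit. These genes are close relatives, and how their reads were divided is uncertain, although no stretch at the identity set above was found. Heat shock and chaperonin genes had a median of 0.05 over 300 pairs, and their highest pair, HSPD1 with HSP90AB1, went from 0.44 to 0.23 after the fit. Immediate early genes had a median of 0.06, with FOS and CYR61 highest at 0.25, below the value from which a pair is described as correlated. This pair had 0.40 without thinning and 0.38 at 8000 UMIs.

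The pluripotency genes correlated little with one another. Over the 253 pairs of 23 core pluripotency genes the median r was 0.02, 176 were above 0 and 0 reached 0.3. Their highest pair was POU5F1 with ESRG at 0.28 (0.19 after the fit). The count depends on depth: 4 of these pairs reached 0.3 without thinning and 2 at 8000 UMIs, with medians of 0.05 and 0.03. POU5F1 with ESRG had 0.38 and 0.39 in these settings. Primed and formative genes had a median of 0.01 over 136 pairs, with CD24 and DNMT3B highest at 0.31 (0.16 after the fit). Genes of FGF and ERK feedback had a median of 0.00, with DUSP6 and SPRY4 at 0.19 (0.32 without thinning and 0.31 at 8000 UMIs). Apart from POU5F1B, the partners of POU5F1 with the highest r were EEF1A1 (0.44) and STEAP1B (0.43), which stood at 0.18 and 0.17 after the fit and at 0.05 and 0.07 in cells under 5% mitochondrial UMIs.

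For the other markers no partner reached 0.3 at 5000 UMIs. ESRG and TDGF1 both had UGP2, the enzyme that makes UDP-glucose, as their first partner, at 0.29 and 0.22. Without thinning these values were 0.37 and 0.31, and at 8000 UMIs they were 0.33 and 0.26. At 5000 UMIs the highest values were 0.18 for NANOG (WDR1) and 0.14 for L1TD1 (POLR3G). Among other factors they were 0.19 for SOX2 (WSB1), 0.25 for ZIC2 (STEAP1B, 0.05 after the fit), 0.14 for OTX2 (MCM8) and 0.13 for SALL4 (CD24). NANOG and WDR1 were seen together in 180 cells and OTX2 and MCM8 in 35, and in counts this sparse such values are no finding. The pairs of ZIC2, SALL4, SOX2 and L1TD1 were seen together in 705, 518, 441 and 385 cells. With values under 0.3 they are not described as correlated either.

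**Figure D5:**
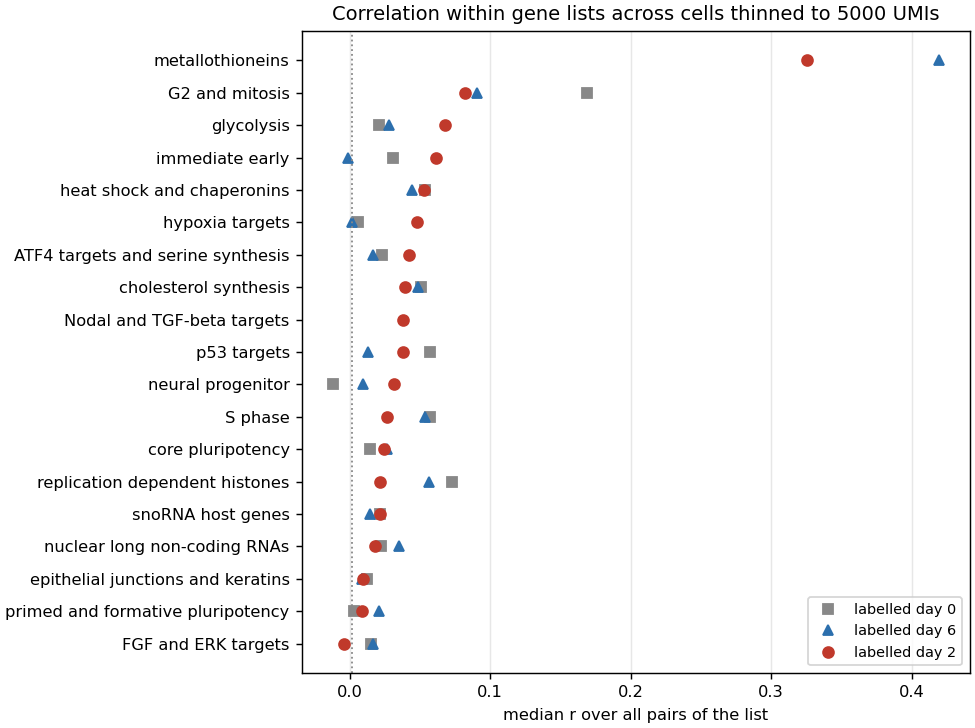
Median Pearson's r over all pairs of each gene list with at least 4 genes seen in at least 10% of cells (x axis), in cells of at least 5000 UMIs thinned to 5000, with 1 symbol per library; the dotted line marks the median of all pairs in the library labelled day 2, 0.0016. Metallothioneins (0.33) and G2 and mitosis genes (0.08) have the highest medians of the lists in that library. Glycolysis and hypoxia genes lie to the right of both other libraries, in which their summed levels were lower.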

How the data were processed

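The authors deposited, for each library, 1 table of whole counts by gene and barcode, taken as UMI counts because inDrop uses UMIs; whether duplicate reads were collapsed is not given in the sources used here. Alignment with STAR to hg38 is named, without a version, in the submitters' processing notes, with nothing on annotation, strand or multi-mapping reads. Barcodes under 100 genes were already gone from the deposited tables. Gene lists of the 3 libraries were joined into 31113 symbols.

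Levels are UMIs summed over kept cells per 1000000 summed UMIs (CPM), with exact Poisson 95% intervals; ratios have exact conditional binomial intervals and shares of cells Clopper-Pearson intervals. A gene at 0 UMIs was set to a floor of 3 UMIs for a ratio. PCR and capture add error that these intervals leave out. For r, cells of at least 5000 UMIs were thinned to 5000 (seed 1), and genes seen in at least 10% of them were used. Clusters were made with scanpy 1.11.5 (10000 UMIs per cell, 2000 variable genes, 30 principal components, 15 neighbours, Leiden resolution 0.5, igraph 0.11.9) and named from at least 3 markers. Doublets were kept, because scrublet called 0 cells and so cannot be said to have worked; leaving out the 87 cells with the highest scores was an alternative. Of 30 gene lists with 589 symbols, 28 symbols were matched through a RefSeq synonym and 10 were not found. Pseudogenes inside genes and transcripts alike over at least 100 bases at 95% identity were searched in GENCODE 29.

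Named genes are the 6 markers, the 10 most abundant genes and the 20 most abundant outside mitochondrial and ribosomal protein genes, the 25 highest transcription factors with the 10 highest and 10 lowest against both other libraries, the 10 highest Fano factors, the 15 highest and 10 lowest pairs, the 10 highest pairs of other genes, the 3 first partners of each marker and of SOX2, OTX2, ZIC2 and SALL4, and the highest pair of each list. List members outside this rule, and the pairs named after the fit, were chosen after their values were seen. A few results named by these rules are not reported here. The members, lists and rules were chosen with earlier results of these data known. The level, count and correlation steps were tested on simulated data. Alternatives covered filters, thinning, scaling (TMM factors from edgeR 4.0.16), doublets, mitochondrial share and the form of r.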

Additional observations from a re-analysis of the deposited data

How the results depend on the processing

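The summed level of the 6 markers was 2707 CPM and lay at 3306 CPM with a mitochondrial limit of 10%, 2994 CPM as a mean over cells scaled singly, 3781 CPM when mitochondrial and ribosomal protein genes were left out of the totals, and 2736 CPM without the neural progenitor-like cells. The share of cells with a POU5F1 UMI was 73.3% after thinning to 1000 UMIs, 94.3% without thinning and 97.9% in cells thinned to 5000. Counts of transcription factors higher and lower than in both other libraries, 31 and 31, were 77 and 49 with no minimum beyond 1 UMI and 10 and 20 with a minimum of 50 CPM, so the higher ones made up 50%, 61.1% and 33.3% of those counted, and 38.4% with a mitochondrial limit of 10%; other scalings gave 28 to 34 higher and 35 to 36 lower. The count of pairs with an r of at least 0.3, 2667, was 18341 without thinning, 5417 at 8000 UMIs, 358 in cells with 5 to 25% mitochondrial UMIs and 192 with residuals on log2 UMIs and mitochondrial share; of the alternatives chosen after seeing the data, totals without mitochondrial genes and RP5-857K21.4 gave 1013 and cells under 5% gave 419, and all other settings gave 1905 to 3132. The cause of these differences was not tested. With a mitochondrial limit of 10%, the levels of 16 of 77 named genes moved by over 1.5 times, with NR2F2 lowest at 0.196 times its value. As a mean over cells scaled singly 6 of the 77 did, with FOXO1 at 111 in place of 172 CPM, GRHL2 at 17.0 in place of 29.8, KLF5 at 7.0 in place of 13.6, SIX3 at 6.65 in place of 4.12, ZEB2 at 4.05 in place of 6.11 and MT-CO2 at 5980 in place of 9036 CPM. No named pair with an r of at least 0.3 in size changed its sign under the alternatives run, but pairs and list medians nearer to 0 did. In cells under 5% ZIC2 had -0.05 with STEAP1B in place of 0.25. With residuals on the cell-cycle lists the median r of the G2 and mitosis list went from 0.08 to -0.01. That of the S phase list went from 0.03 to -0.02. Those residuals were taken on the summed UMIs of these same lists, which by itself lowers r between their members. Neither change is thus evidence on how these genes vary. No paired analysis was possible because each day has 1 library. With 3 UMIs at 0.145 CPM, depth limits statements on genes of a few CPM, and NANOG, CDH1 and OTX2 were too sparse to call single cells negative or to describe their partners.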

Other observations

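Barcodes with under 1000 UMIs were not used above. The 8625 such barcodes of the library labelled day 2 held 2722607 UMIs, in which POU5F1 stood at 897 CPM, TDGF1 at 421 CPM, ESRG at 407 CPM, L1TD1 at 159 CPM, CDH1 at 92.9 CPM and NANOG at 39.3 CPM. In the kept cells these genes stood at 1229, 569.5, 521, 227, 94.2 and 66.6 CPM, in the same order. Mitochondrially encoded genes took 282184 CPM of these barcodes, against 118194 CPM of the kept cells.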
